A study of Mus musculus with 12 samples.

Results

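The 39 genes described here encode the TGF-beta, BMP and activin signaling pathway: 9 ligands, 6 latency, matrix and protease proteins, 9 receptors and co-receptors, 7 SMADs, 4 inhibitors and the 4 ID genes. They were chosen by gene name from a list drawn up with earlier results of these data known, and all 39 were found among the 43346 genes of the deposited table. Messenger RNA was measured in mouse kidney at day 1 in 6 sham libraries (samples 1 to 6) and 6 HP-AKI libraries (samples 7, 8, 9, 11, 12 and 13), and the question was how HP-AKI kidney differed from sham kidney. AKI is acute kidney injury, and in kidney research HP usually abbreviates heme protein, although the labels leave the letters unexplained. Strain, sex, age, genotype, the injuring agent and its dose are not given in the sources used here, and neither is a batch. It is also not given whether the samples came from separate animals. A p-value here therefore weighs the group difference only against the spread between these libraries, and that spread may be technical.

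Ligands of this family bind paired type I and type II receptor kinases at the cell surface, and the activated type I receptor phosphorylates receptor SMADs, which join SMAD4 and enter the nucleus. TGF-beta and activin ligands act mainly through SMAD2 and SMAD3, and BMPs through SMAD1, SMAD5 and SMAD9, while SMAD6 and SMAD7 feed back as inhibitors and the ID genes are classic BMP-responsive targets. In kidney, TGF-beta is best known for driving fibrosis after injury, BMP7 for sustaining the tubular epithelium, and activin for inhibiting tubule regrowth.

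Library totals lay between 31624522 and 41951129 counts. Levels are given as counts-per-million (CPM), adjusted with TMM factors so that libraries of different make-up can be compared. As a check of the group labels, the heme-degrading enzyme Hmox1 lay at 15.3 to 27.4 CPM in sham and 2124 to 3689 CPM in HP-AKI, and the tubular injury marker Havcr1 at 3.67 to 6.29 and 604 to 1142 CPM. The tissue label was checked with 10 proximal tubule markers, all of which were present, with a summed level of 51260.5 to 75093 CPM in sham and 23586 to 31093 CPM in HP-AKI. Kap alone made up most of that sum, at means of 43168.5 CPM in sham and 23200.1 CPM in HP-AKI. Its log2 fold change was -0.90, against a median of -1.90 for the 10 markers. Of 17470 genes with enough counts to test, 72.8% passed an adjusted p of 0.05, 37.7% being higher and 35.2% lower in HP-AKI, with a median log2 fold change of 0.04. In bulk tissue, fewer cells of a type and less RNA per cell cannot be told apart.

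All 39 genes had enough counts to test, and 25 of them were higher in HP-AKI and 5 lower, while 9 did not pass. The 30 genes that passed made up 76.9% of the 39, close to the 72.8% of all genes tested. The split by direction was less even than in the whole table, with 64.1% of the 39 higher against the background of 37.7%, and 12.8% lower against 35.2%. The median log2 fold change of the 39 was 0.70. In 21 genes every HP-AKI library lay above every sham library, and in 4 every HP-AKI library lay below, so that 64.1% of the genes had groups that did not overlap, against 52.4% of all genes tested. Of all 39 genes, 15 passed with a rise and 2 with a fall of 2-fold or more on the fitted scale. Of all genes tested, 33.1% passed that rule in either direction.

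**Figure D1:**
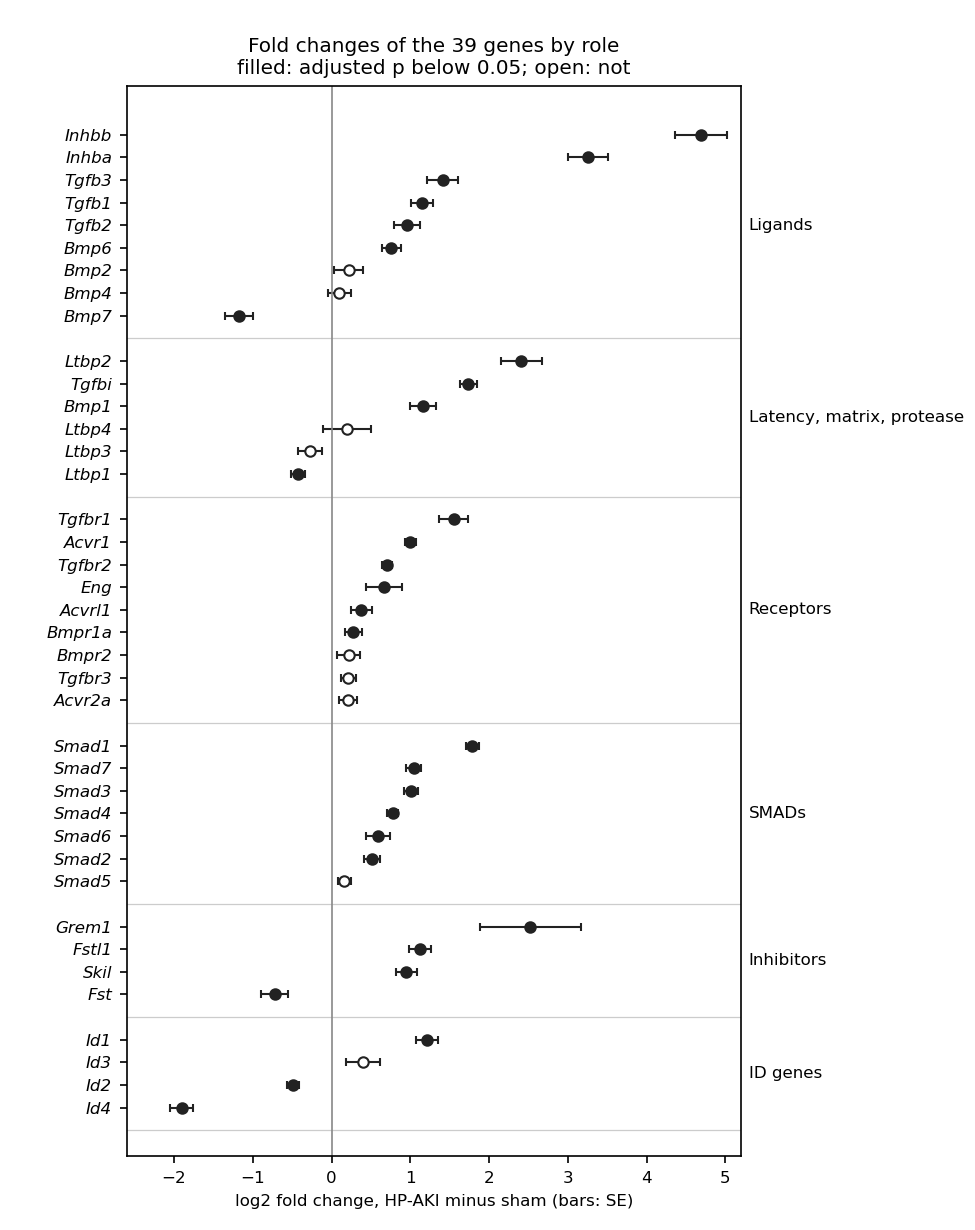
Log2 fold change of HP-AKI minus sham for each of the 39 genes (x axis, bars give the SE), grouped by role on the y axis, with filled points for an adjusted p below 0.05. The activin subunit genes Inhbb (4.69) and Inhba (3.25) stand farthest to the right and Id4 (-1.90) farthest to the left.

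The activin subunit genes rose most among the ligands. Inhba encodes the beta A and Inhbb the beta B subunit, whose dimers form activin A and activin B. Inhba (ENSMUSG00000041324, chromosome 13, 16011851 to 16027211) was near the limit of measurement in sham, with 21 counts over the 6 libraries, and had 208 counts in HP-AKI. Its lowest, median and highest sham levels were 0.0539, 0.0934 and 0.146 CPM, and those of HP-AKI were 0.737, 0.947 and 1.16 CPM. The groups stood clear of each other, and the log2 fold change was 3.25 ± 0.25 (SE, 6 against 6 libraries, adjusted p = 1.90e-08). Inhbb (ENSMUSG00000037035, chromosome 1, 119415465 to 119422248) lay at 0.608, 0.748 and 1.34 CPM in sham and at 11.5, 18.3 and 37.9 CPM in HP-AKI. Every HP-AKI library was well above all sham libraries, but the HP-AKI libraries differed among themselves by 3.29-fold, with HP-AKI 8 the highest and HP-AKI 11 the lowest. Its log2 fold change was 4.69 ± 0.34 (adjusted p = 7.04e-09), the largest of the 39 genes. Per kilobase of gene length, the mean Inhbb level moved from rank 36 of the 39 genes in sham, at 0.206 CPM per kilobase, to rank 23 in HP-AKI, at 5.36 CPM per kilobase.

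The promoters of Inhba and Inhbb, the 2 genes with the largest rises, are shown with those of Smad6, Id2 and Id4, which hold motifs read by SMAD proteins or by cyclic AMP response factors. The sequences are RefSeq's on GRCm38.p6 and run 5′ to 3′ on the gene's strand from 250 bases before the start site to 25 bases after it, with motif matches in capitals. For Id4, RefSeq's start site lies before the gene start of the deposited table.
Inhba, chr13:16011601-16011875, plus strand: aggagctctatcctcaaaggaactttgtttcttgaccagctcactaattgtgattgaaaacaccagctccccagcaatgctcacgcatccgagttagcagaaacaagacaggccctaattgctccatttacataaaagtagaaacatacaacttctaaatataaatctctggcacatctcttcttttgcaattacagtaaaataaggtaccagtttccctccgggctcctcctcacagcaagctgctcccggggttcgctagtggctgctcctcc
Inhbb, chr1:119422224-119422498, minus strand: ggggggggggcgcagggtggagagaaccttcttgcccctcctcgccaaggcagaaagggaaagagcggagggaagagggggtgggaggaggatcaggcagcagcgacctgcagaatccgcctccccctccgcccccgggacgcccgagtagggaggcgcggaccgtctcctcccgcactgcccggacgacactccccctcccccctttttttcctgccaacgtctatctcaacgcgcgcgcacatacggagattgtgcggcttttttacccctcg
Smad6, chr9:64022035-64022309, minus strand: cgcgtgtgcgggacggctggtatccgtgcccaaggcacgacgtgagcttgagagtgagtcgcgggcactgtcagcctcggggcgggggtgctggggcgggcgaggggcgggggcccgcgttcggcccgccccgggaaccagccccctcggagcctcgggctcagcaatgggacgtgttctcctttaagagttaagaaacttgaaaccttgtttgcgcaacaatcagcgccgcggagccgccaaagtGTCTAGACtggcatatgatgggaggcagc
Id2, chr12:25096068-25096342, minus strand: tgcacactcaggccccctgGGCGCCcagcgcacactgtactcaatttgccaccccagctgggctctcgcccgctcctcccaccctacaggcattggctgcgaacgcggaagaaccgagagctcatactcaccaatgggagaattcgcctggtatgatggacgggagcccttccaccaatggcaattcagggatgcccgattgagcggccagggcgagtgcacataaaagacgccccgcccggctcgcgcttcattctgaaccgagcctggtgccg
Id4, chr13:48260866-48261140, plus strand: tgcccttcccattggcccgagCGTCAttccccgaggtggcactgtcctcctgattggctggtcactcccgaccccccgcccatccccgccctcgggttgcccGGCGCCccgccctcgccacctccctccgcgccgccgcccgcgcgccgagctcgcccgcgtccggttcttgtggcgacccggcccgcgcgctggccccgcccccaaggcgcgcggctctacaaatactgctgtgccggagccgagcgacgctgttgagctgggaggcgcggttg
The RefSeq promoter table held 33 entries for 27 of the 39 genes, with Id1, Bmp7 and Smad7 among the 12 without one, and a window of 300 bases (250 before to 50 after the start site) was searched on both strands. Neither the Inhba nor the Inhbb window held any of the 6 motifs searched. The palindromic SMAD element GTCTAGAC was found in 1 of the 33 member promoters, that of Smad6, beginning at position -4 from the start site, and in 0.213% of all 32851 promoters. The GC-rich SMAD element GGCGCC was found in 11 of the 33, from 9 genes, and in 11.9% of all promoters, with matches at -231 in Id2 and -148 in Id4. The short SMAD box CAGAC, which is found in 49.6% of all promoters, was in 14 of the 33. The CRE half-site TGACG was in 6 of the 33 and in 20.8% of all promoters, among them Id4, where its reverse complement begins at -229. The full CRE TGACGTCA, which contains that half-site, was in 1 of the 33 (Ltbp1) and in 1.79% of all promoters. The AP-1 site TGANTCA was also in 1 (Ltbp3) and in 7.81% of all promoters. These matches describe letters in a window, and no binding was measured.

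All 3 TGF-beta isoform genes rose. Tgfb1 (ENSMUSG00000002603, chromosome 7, 25687002 to 25705077), the isoform most studied in renal fibrosis, lay at 2.71, 3.44 and 4.56 CPM (lowest, median and highest) in sham and at 7.01, 7.83 and 8.44 CPM in HP-AKI. The groups did not overlap and the HP-AKI libraries lay close together, and the log2 fold change was 1.15 ± 0.14 (adjusted p = 2.26e-06). Tgfb3 lay at 1.18, 2.15 and 2.37 CPM in sham and at 3.45, 5.54 and 6.57 CPM in HP-AKI, again without overlap, with a log2 fold change of 1.41 ± 0.20 (adjusted p = 1.39e-05). Tgfb2 lay at 3.08, 3.30 and 4.85 CPM in sham and at 4.83, 7.33 and 8.53 CPM in HP-AKI. Here the groups touched, since sham 2 was just above HP-AKI 12, and the log2 fold change was 0.96 ± 0.16 (adjusted p = 7.23e-05). Shares of the isoforms were taken from CPM per kilobase of gene length. Of that sum, Tgfb1 made up 53.3% ± 4.24 in sham and 53.2% ± 3.97 in HP-AKI. Tgfb2 made up 24.5% ± 6.66 and 20.5% ± 3.68, and Tgfb3 22.2% ± 3.94 and 26.3% ± 3.65 (SD, n = 6 each). The ranges of the groups overlapped for each of the 3 shares.

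Platelets and macrophages are known sources of Tgfb1, and their markers were read in the same libraries. Of 8 platelet markers, 4 had enough counts to test and 3 of these rose, and their summed level was 4.70 to 8.31 CPM in sham and 8.92 to 16.3 CPM in HP-AKI. The platelet surface genes Gp9, Gp1ba, Gp6 and Treml1 were at or near 0 in both groups. Of 10 macrophage markers, 2 rose, 5 fell and 3 did not pass, with a summed level of 107 to 158 CPM in sham and 118 to 175 CPM in HP-AKI. Neutrophil markers, of which 6 of 7 tested rose, summed to 2.52 to 4.46 CPM in sham and 20.7 to 172 CPM in HP-AKI. The part of these cells in the level of Tgfb1 was not tested.

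The BMP ligand genes moved in different directions. Bmp6, an iron-regulated BMP that induces hepcidin in liver, lay at 26.4, 31.3 and 34.2 CPM in sham and at 35.1, 53.7 and 64.4 CPM in HP-AKI. The lowest HP-AKI library, HP-AKI 8, was only just above the highest sham library, and the log2 fold change was 0.76 ± 0.12 (adjusted p = 3.71e-05). Bmp7 (ENSMUSG00000008999, chromosome 2, 172868012 to 172940321), the BMP of the kidney epithelium, lay at 19.3, 28.0 and 32.9 CPM in sham and at 8.41, 12.1 and 16.6 CPM in HP-AKI. Its groups did not overlap either, and it fell by 1.17 ± 0.17 on the log2 scale (adjusted p = 1.80e-05). Bmp2 at 2.42 ± 0.393 CPM in sham and 2.81 ± 0.756 CPM in HP-AKI (SD, n = 6 each) and Bmp4 at 19.4 ± 3.79 and 20.8 ± 4.27 CPM did not pass, with adjusted p of 0.294 and 0.557. Of the summed CPM per kilobase of these 4 BMP genes, Bmp6 took 44.6% ± 2.87 in sham and 62.2% ± 4.66 in HP-AKI (SD, n = 6 each). Bmp7 took 22.8% ± 2.35 and 8.46% ± 1.40.

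Bmp7 is made in podocytes and in the distal nephron and collecting duct, and markers of those segments did not move as one. Of 8 distal and collecting duct markers, 5 fell and 3 did not pass, and their summed level was 689 to 1087 CPM in sham and 382 to 523 CPM in HP-AKI. Slc12a3 was the largest part of that sum, at 605 ± 142 CPM in sham and 218 ± 33.8 CPM in HP-AKI (SD, n = 6 each). Aqp3, Scnn1g, Avpr2 and Slc4a1 also fell, and the 3 that did not pass were Aqp2, Scnn1b and Atp6v1g3. Of 6 thick ascending limb markers, 4 fell and 1 rose, summing to 9327 to 10089 CPM and 4372 to 6609 CPM. Of 8 podocyte markers, 4 rose, 2 fell and 2 did not pass, and their summed level was 478 to 645 CPM in sham and 604 to 841 CPM in HP-AKI. The part of these segments in the fall of Bmp7 was not tested.

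Among the latency, matrix and protease genes, 3 rose, 1 fell and 2 did not pass. The share that passed was 66.7%, against 72.8% of all genes tested. Tgfbi, a matrix protein named for its induction by TGF-beta, lay at 18.1, 20.3 and 24.6 CPM in sham and at 56.2, 68.6 and 84.0 CPM in HP-AKI. Its groups were far apart, with a log2 fold change of 1.74 ± 0.11 (adjusted p = 1.37e-09). Bmp1, the protease that trims procollagens and releases latent growth factors, lay at 4.58, 7.74 and 8.63 CPM in sham and at 10.8, 16.5 and 18.6 CPM in HP-AKI (log2 fold change 1.16 ± 0.17, adjusted p = 1.42e-05). The latent TGF-beta binding proteins, which tether latent TGF-beta to the matrix, did not move together. Ltbp2, the member of this family that does not bind latent TGF-beta, lay at 0.270, 0.405 and 0.697 CPM in sham and at 1.64, 2.31 and 3.15 CPM in HP-AKI (2.41 ± 0.26, adjusted p = 6.22e-07), without overlap. Ltbp1 lay at 35.1, 39.1 and 41.3 CPM in sham and at 24.6, 29.1 and 34.0 CPM in HP-AKI, also without overlap, and fell by 0.42 ± 0.09 on the log2 scale (adjusted p = 4.36e-04). Ltbp3 (log2 fold change -0.28 ± 0.15, adjusted p = 0.110) and Ltbp4 (0.20 ± 0.30, adjusted p = 0.572) did not pass, and Ltbp4 ranged over 6.06 to 18.02 CPM within sham and 7.74 to 25.0 CPM within HP-AKI.

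**Figure D2:**
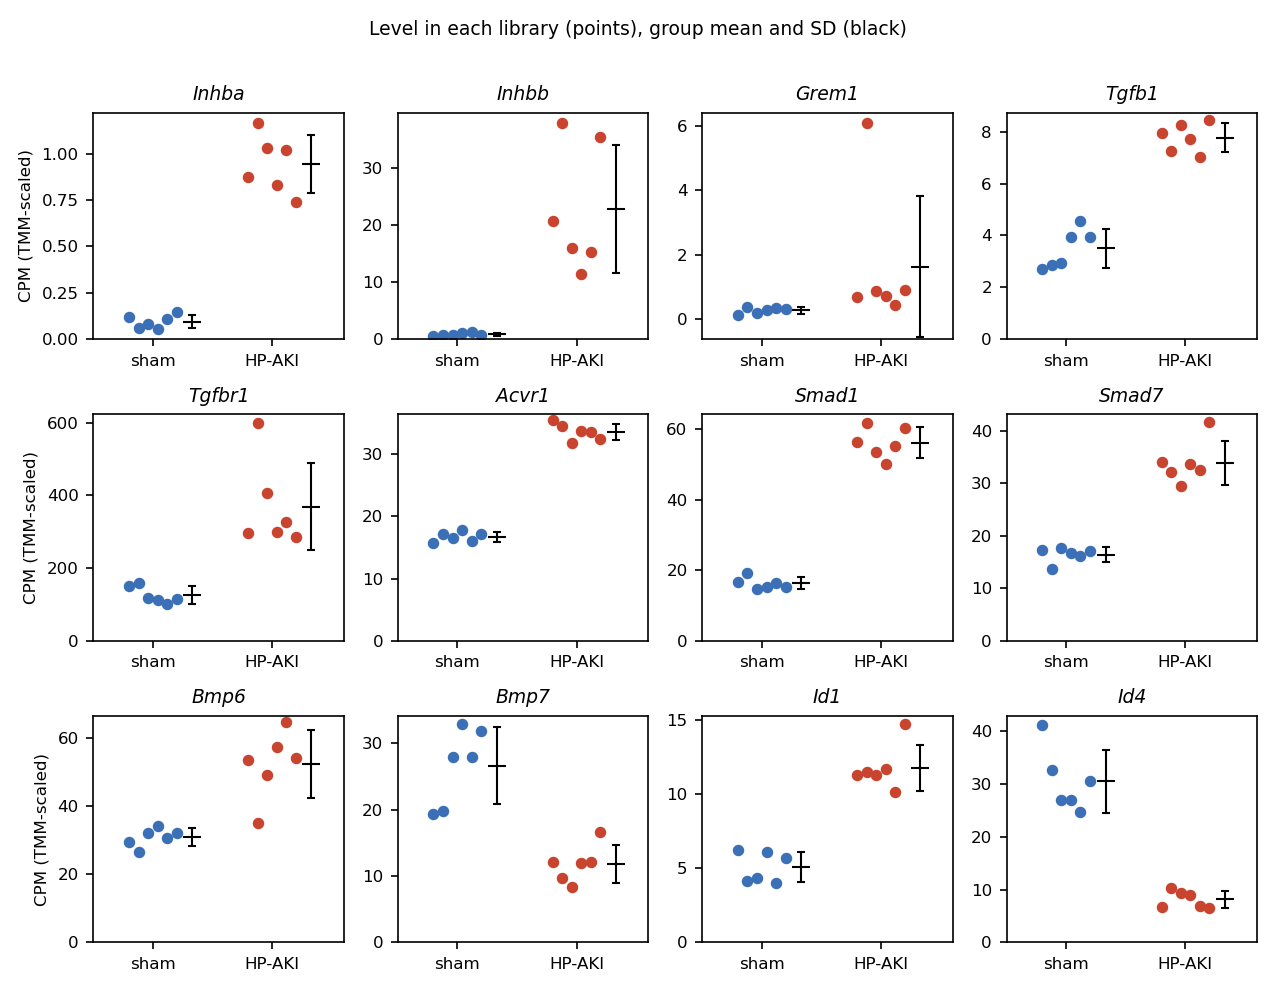
TMM-scaled CPM (y axis, 1 panel per gene) of 12 of the genes in the 6 sham (blue) and 6 HP-AKI (red) libraries, each point 1 library in label order, with the group mean and SD in black. All 12 genes shown are among the 64.1% of the 39 whose groups do not overlap, against 52.4% of all genes tested, and no gene with overlap is shown. In the Grem1 panel HP-AKI 8 stands at 6.08 CPM above the rest.

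Of the 9 receptor and co-receptor genes, 6 rose, none fell and 3 did not pass, but only 3 had groups that did not overlap. The share that passed was 66.7%, against 72.8% of all genes tested, and the share without overlap 33.3%, against 52.4%. Tgfbr1 (ENSMUSG00000007613, chromosome 4, 47353222 to 47414931), the type I kinase that phosphorylates SMAD2 and SMAD3, lay at 100.1, 116 and 160 CPM in sham and at 285, 314 and 598 CPM in HP-AKI. No library crossed between the groups, HP-AKI 8 was the highest of all, and the log2 fold change was 1.55 ± 0.18 (adjusted p = 1.69e-06). Per kilobase, its mean level was 19.3 CPM per kilobase in sham and 56.5 CPM per kilobase in HP-AKI. Its type II partner Tgfbr2, which binds the ligand first, lay at 79.8, 86.3 and 91.7 CPM in sham and at 131, 140 and 152 CPM in HP-AKI (0.70 ± 0.06, adjusted p = 7.76e-08). Acvr1 (ENSMUSG00000026836, chromosome 2, 58388644 to 58567157), also called ALK2 and a type I receptor for BMPs, lay at 15.7, 16.9 and 17.9 CPM in sham and at 31.7, 33.7 and 35.5 CPM in HP-AKI. These libraries were among the most even of the 39 genes, and the log2 fold change was 1.00 ± 0.07 (adjusted p = 3.97e-09).

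The other receptors differed less between the groups, and their levels overlapped. Bmpr1a, a BMP type I receptor, lay at 98.6, 103 and 141 CPM in sham and at 121, 131 and 166 CPM in HP-AKI, with a log2 fold change of 0.28 ± 0.11 (adjusted p = 0.0296). That call was lost when any of sham 3, sham 4, sham 5, sham 6, HP-AKI 8 or HP-AKI 9 was left out, with log2 fold changes of 0.20 to 0.26. The co-receptor Tgfbr3 (0.22 ± 0.10, adjusted p = 0.0663), the BMP type II receptor Bmpr2 (0.22 ± 0.14, adjusted p = 0.180) and the activin type II receptor Acvr2a (0.21 ± 0.12, adjusted p = 0.113) did not pass. With library sizes alone as the scaling, the median log2 fold change of all genes moved from 0.04 to 0.16, and these 3 genes and Smad5 then passed, at 0.34 for Tgfbr3, Bmpr2 and Acvr2a and 0.29 for Smad5.

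Acvrl1 and Eng encode ALK1 and endoglin, the BMP9 and BMP10 receptor pair of endothelium. Acvrl1 lay at 7.91, 12.1 and 13.8 CPM in sham and at 11.8, 15.0 and 16.4 CPM in HP-AKI, with a log2 fold change of 0.38 ± 0.14 (adjusted p = 0.0212). Its call was lost without sham 1, HP-AKI 7, HP-AKI 11 or HP-AKI 13, at 0.32 to 0.33, and without sham 1, sham 2 and HP-AKI 8 together the value was 0.19. Eng lay at 30.0, 52.4 and 66.9 CPM in sham and at 51.7, 70.6 and 125 CPM in HP-AKI, with a log2 fold change of 0.67 ± 0.23 (adjusted p = 0.0160), and its call was lost without HP-AKI 13, at 0.46. Of 10 other endothelial markers, 5 rose, 2 fell and 3 did not pass, and their summed level was 675 to 743 CPM in sham and 741 to 1049 CPM in HP-AKI. The part of endothelial content in the levels of Eng and Acvrl1 was not tested.

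Of the 7 SMAD genes, 6 rose without overlap of the groups, and Smad5 did not pass. The share without overlap was 85.7%, against 52.4% of all genes tested. Smad1 (ENSMUSG00000031681, chromosome 8, 79338395 to 79399518), a receptor SMAD of the BMP branch, lay at 14.6, 15.9 and 19.3 CPM in sham and at 50.001, 55.8 and 61.8 CPM in HP-AKI. The gap between the groups was wide against the spread within them, and the log2 fold change was 1.79 ± 0.09 (adjusted p = 9.05e-11), the smallest adjusted p of the 39 genes. Smad5, which transmits the same signal, lay at 98.3, 116 and 134 CPM in sham and at 117, 133 and 139 CPM in HP-AKI (0.16 ± 0.08, adjusted p = 0.0844). Scaled by gene length, Smad1 took 15.2% ± 1.43 of the summed CPM per kilobase of Smad1 and Smad5 in sham and 35.4% ± 2.32 in HP-AKI (SD, n = 6 each). On the TGF-beta branch, Smad3 lay at 58.4, 60.9 and 64.2 CPM in sham and at 103, 121 and 154 CPM in HP-AKI (1.01 ± 0.09, adjusted p = 5.80e-08). Smad2 lay at 37.5, 40.2 and 54.8 CPM and at 59.2, 62.3 and 67.1 CPM (0.51 ± 0.10, adjusted p = 3.29e-04), and the shared partner Smad4 at 48.5, 55.0 and 62.0 CPM and at 89.3, 93.7 and 101.3 CPM (0.78 ± 0.07, adjusted p = 1.33e-07). In both genes all HP-AKI libraries were above all sham libraries.

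The inhibitory SMADs rose as well. Smad7, which binds activated type I receptors and recruits ubiquitin ligases to them, lay at 13.6, 17.0 and 17.7 CPM in sham and at 29.5, 33.1 and 41.8 CPM in HP-AKI (1.04 ± 0.10, adjusted p = 1.09e-07). Smad6, the inhibitor that acts mainly on BMP signals, was less abundant and lay at 1.91, 2.08 and 2.16 CPM in sham and at 2.18, 3.04 and 4.27 CPM in HP-AKI (0.59 ± 0.15, adjusted p = 0.00236). Its groups were only just apart, with HP-AKI 9 next to the highest sham library. Smad6 is the gene whose promoter, printed above, holds the palindromic SMAD element next to the start site.

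The 4 inhibitors of the pathway did not share a direction. Fst encodes follistatin, which binds and neutralizes activins, and it lay at 9.36, 10.5 and 11.6 CPM in sham and at 4.39, 5.97 and 9.80 CPM in HP-AKI. HP-AKI 9 overlapped the sham range and the other 5 HP-AKI libraries lay below it, and Fst fell by 0.72 ± 0.17 on the log2 scale (adjusted p = 0.00156). Skil encodes SnoN, a nuclear repressor that binds SMADs, and lay at 56.3, 59.5 and 83.2 CPM in sham and at 109, 120 and 171 CPM in HP-AKI (0.95 ± 0.13, adjusted p = 7.73e-06). Fstl1, a secreted follistatin-like glycoprotein, lay at 50.04, 57.2 and 67.9 CPM in sham and at 84.0, 125 and 165 CPM in HP-AKI (1.12 ± 0.14, adjusted p = 2.26e-06). Both genes were free of overlap, and HP-AKI 8 was the highest library in each.

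Grem1 encodes gremlin, a secreted antagonist of BMP2, BMP4 and BMP7, and its mean was set by 1 library. It lay at 0.122, 0.307 and 0.394 CPM in sham and at 0.452, 0.798 and 6.08 CPM in HP-AKI, with 61 counts over the sham libraries and 346 over the HP-AKI libraries. All HP-AKI libraries were above all sham libraries, but HP-AKI 8 stood 13.5-fold above the lowest HP-AKI library. The log2 fold change was 2.52 ± 0.64 (adjusted p = 0.00243), and without HP-AKI 8 it was 1.37 (adjusted p = 5.95e-04). Of 10 fibroblast and pericyte markers, 4 rose, 4 fell and 2 did not pass, and their summed level was 497 to 594 CPM in sham and 606 to 787 CPM in HP-AKI. The part of these cells in the levels of Grem1, Fstl1 and Ltbp2 was not tested.

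The ID genes encode small helix-loop-helix proteins that bind and block transcription factors, and they diverged. Id1 lay at 3.995, 5.02 and 6.24 CPM in sham and at 10.2, 11.4 and 14.7 CPM in HP-AKI, with a log2 fold change of 1.21 ± 0.14 (adjusted p = 1.59e-06). Id4 (ENSMUSG00000021379, chromosome 13, 48261427 to 48264036) lay at 24.7, 28.7 and 41.1 CPM in sham and at 6.54, 7.94 and 10.3 CPM in HP-AKI, and fell by 1.90 ± 0.15 on the log2 scale (adjusted p = 2.10e-08). Id1 libraries of HP-AKI were all above sham and Id4 libraries all below. Id2 (ENSMUSG00000020644, chromosome 12, 25093801 to 25096092) lay at 237, 288 and 300.4 CPM in sham and at 182, 199 and 219 CPM in HP-AKI, again all below, and fell by 0.49 ± 0.08 (adjusted p = 3.87e-05). Id3 at 11.9 ± 2.86 and 15.7 ± 4.57 CPM (SD, n = 6 each) did not pass (0.40 ± 0.21, adjusted p = 0.102). The shares of the summed ID CPM per kilobase were 1.76% ± 0.337 in sham and 5.66% ± 0.764 in HP-AKI for Id1. Id4 held 7.41% ± 1.42 and 2.73% ± 0.523 (SD, n = 6 each), while Id2 held 88.2% ± 1.33 and 86.7% ± 1.42.

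**Figure D3:**
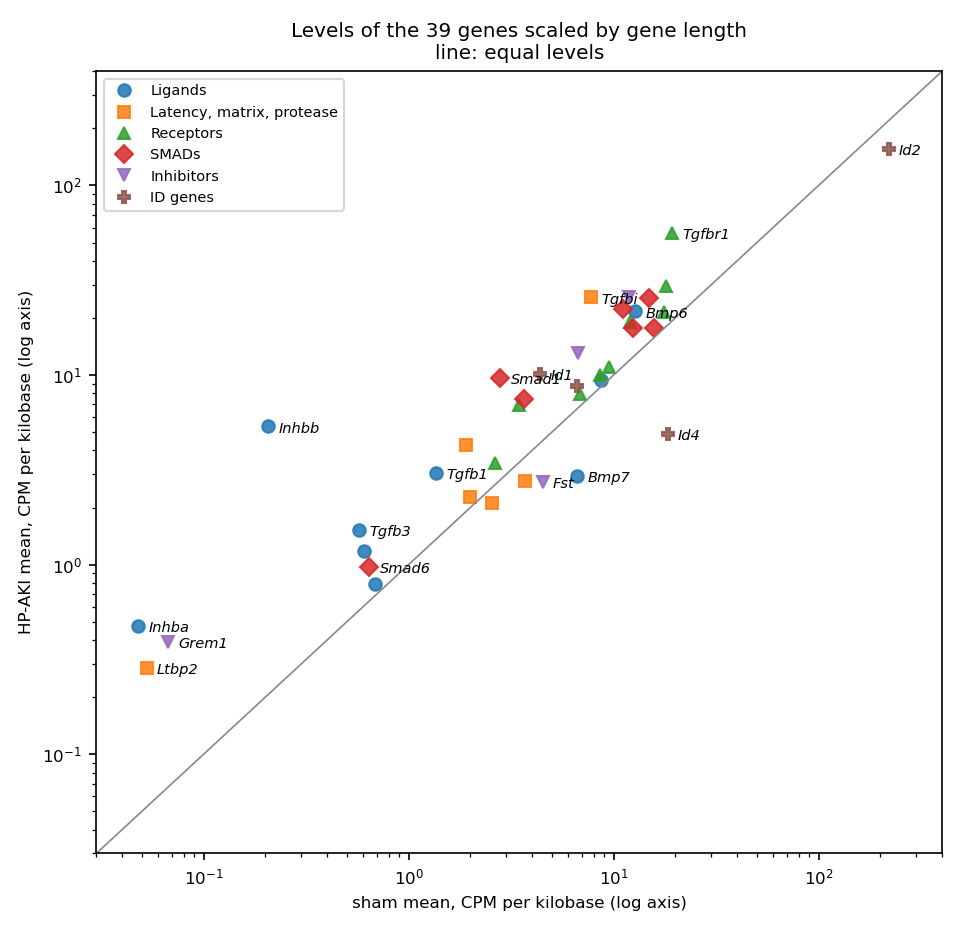
Mean level per kilobase of gene length in sham (x axis) and HP-AKI (y axis) for the 39 genes, both on log axes in CPM per kilobase, with 1 marker shape per role and a line of equal levels. Id2 is the highest in both groups, Inhbb lies farthest above the line, and Id4 and Bmp7 lie below it.

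Scaled by gene length, levels spanned a wide range. Id2 was the most abundant of the 39 at 219 ± 20.5 CPM per kilobase in sham and 156 ± 10.8 in HP-AKI (SD, n = 6 each). In sham Tgfbr1 (19.3 ± 3.60 CPM per kilobase), Id4 (18.4 ± 3.58), Tgfbr2 (18.1 ± 0.844) and Bmpr1a (17.7 ± 2.92) came next, and the sham ranges of these 4 genes overlapped, so that their order is within the spread. In HP-AKI Tgfbr1 (56.5 ± 18.4) stood above the genes after it without overlap. These were Tgfbr2 (29.4 ± 1.51), Fstl1 (25.8 ± 5.47), Tgfbi (25.7 ± 3.87) and Smad4 (25.4 ± 1.17), and the ranges of Fstl1 and Tgfbi overlapped those of both Tgfbr2 and Smad4, so that this order is within the spread. By its mean, Id4 moved from rank 3 to rank 24. Inhba (0.0479 ± 0.0184), Ltbp2 (0.0527 ± 0.0208) and Grem1 (0.0668 ± 0.0249) were the lowest in sham, and the lowest 3 means in HP-AKI were again theirs, although Grem1 in HP-AKI 8 lay among the levels of other genes.

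Ratios within a library do not depend on the scaling factor, and 12 pairs of related genes were compared between the groups by an exact two-sided permutation test over every split of the libraries into 6 and 6, whose smallest possible p is 0.00216. After adjustment over the 12 pairs, 8 passed. In reads, the ratio of Inhba to its antagonist Fst lay between 0.00525 and 0.0134 in sham and between 0.105 and 0.193 in HP-AKI. The mean difference was 3.96 on the log2 scale (exact adjusted p = 0.0052), or 15.6-fold. Fstl3, an extracellular antagonist outside the 39, moved in the opposite direction to Fst. It rose from 4.69 ± 0.655 to 11.4 ± 2.07 CPM (SD, n = 6 each), a log2 fold change of 1.28, without overlap of the groups. Inhbb also outpaced Inhba, by 1.41 (exact adjusted p = 0.013). The ranges of that ratio overlapped, at 4.83 to 20.5 in sham and 13.9 to 48.25 in HP-AKI, and Inhba had only 21 counts over the sham libraries. Tgfbr1 had 1.17 to 1.74 times the reads of Tgfbr2 in sham and 1.96 to 3.95 times in HP-AKI, not scaled by gene length. The difference was 0.82 on the log2 scale (exact adjusted p = 0.0052). Smad3 to Smad2 and Smad7 to Smad6 each differed by 0.48 (exact adjusted p of 0.0111 and 0.0052). The ranges of Smad3 to Smad2 overlapped, at 1.07 to 1.68 in sham and 1.59 to 2.30 in HP-AKI.

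Among the BMP and ID pairs, Bmp4 to Bmp7 ranged over 0.604 to 0.817 in sham and 1.52 to 2.21 in HP-AKI, so that Bmp7 had the more reads of the pair in every sham library and Bmp4 in every HP-AKI library. That difference was 1.27 on the log2 scale and the one of Bmp2 to Bmp7 was 1.36 (exact adjusted p of 0.0052 and 0.0111). The ranges of Bmp2 to Bmp7 overlapped, at 0.059 to 0.152 in sham and 0.126 to 0.364 in HP-AKI. Id1 to Id2 differed by 1.71 (exact adjusted p = 0.0052). The 4 pairs that did not pass were Tgfb2 to Tgfb1 (-0.23 on the log2 scale, exact adjusted p = 0.366), Tgfb3 to Tgfb1 (0.25, 0.171), Bmpr2 to Bmpr1a (-0.07, 0.272) and Eng to Acvrl1 (0.27, 0.156).

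**Figure D4:**
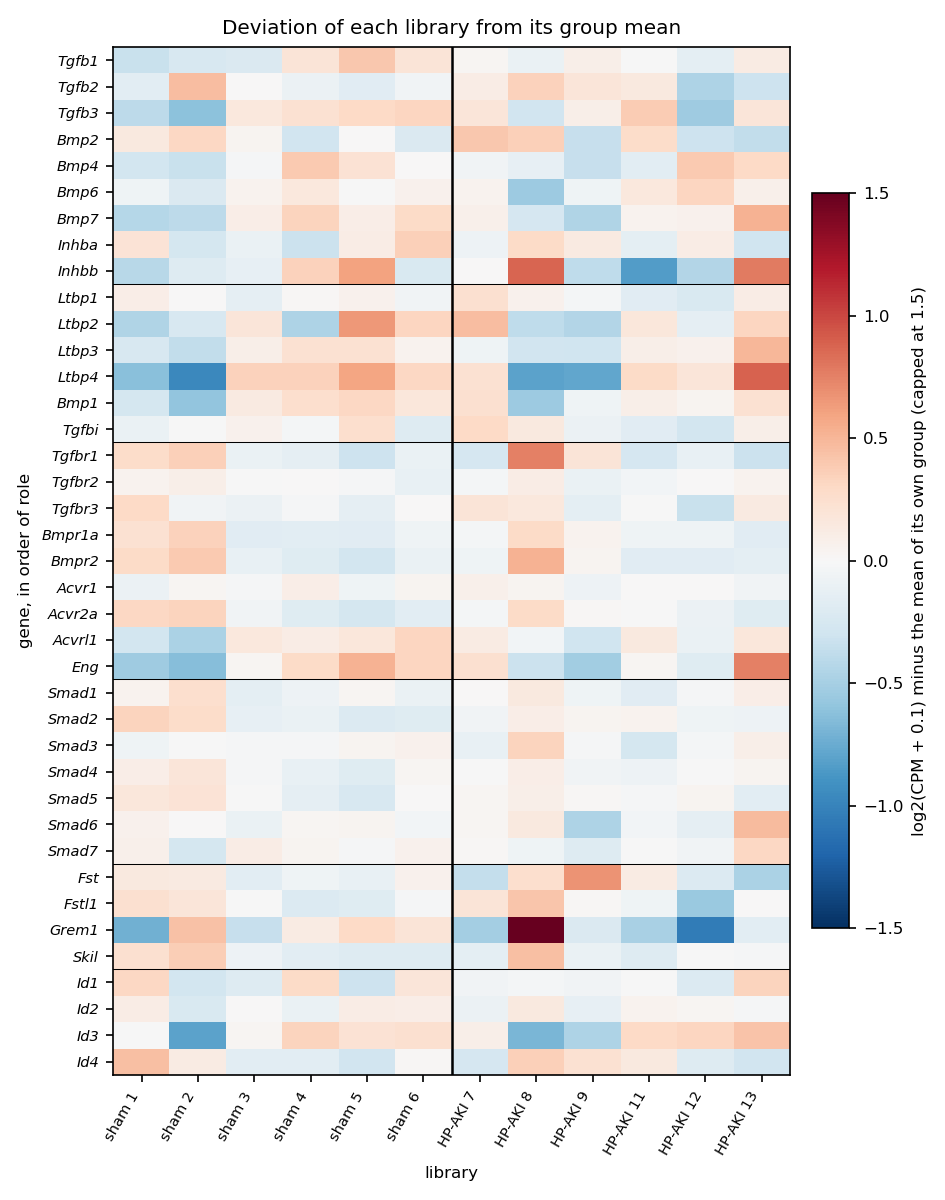
Deviation of each library (columns) from the mean of its own group in log2(CPM + 0.1), for the 39 genes in order of role (rows), with colours capped at 1.5 in either direction. Sham 1 and sham 2 deviate together in many genes, and HP-AKI 8 in Grem1 reaches the cap.

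Within each group, some libraries stood at the edge of the range in many of the 39 genes. Sham 1 and sham 2 were the 2 highest sham libraries in 14 of the 39 genes, among them Tgfbr1, Smad1, Smad4, Skil and Id4, and in 12 of those 14 HP-AKI 8 was the highest HP-AKI library. In 11 other genes, among them Tgfb1, Tgfb3, Bmp7, Eng and Acvrl1, sham 1 and sham 2 were the 2 lowest sham libraries, and in 4 of those HP-AKI 8 was the lowest HP-AKI library. HP-AKI 8 was the highest HP-AKI library in 18 genes and HP-AKI 13 in 10, the latter including Smad6, Smad7, Id1, Eng and Acvrl1. Without sham 1, sham 2 and HP-AKI 8, 26 of the 39 genes were higher and 6 lower, and 28 of the 30 genes called with all libraries were still called.

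Genes of the same pathway outside the 39 were read from lists of 86 genes, of which 62 had enough counts to test. Of these, 26 rose, 11 fell and 25 did not pass, with a median log2 fold change of 0.26. The 37 that passed made up 59.7%, against 72.8% of all genes tested. Higher were 41.9% and lower 17.7%, against 37.7% and 35.2%. The share that passed was 88.9% for ligands, 33.3% for receptors, 61.5% for latency and activation, 57.1% for antagonists and 55.0% for intracellular regulators. Among 9 other ligands, 5 rose and 3 fell: Gdf15, a stress-induced cytokine, rose from 0.376 ± 0.223 to 23.05 ± 8.99 CPM (SD, n = 6 each; log2 fold change 5.89, adjusted p = 1.00e-09) and Gdf9, known from the oocyte, by 4.94. Gdf11 fell by 2.19 and Bmp5 by 1.31. Among 6 other receptors, Amhr2 rose by 1.75 from 26 counts over the sham libraries to 89 in HP-AKI, and Bmpr1b fell by 0.45. Among 13 genes of latency and activation, 6 rose and 2 fell. Lrrc32, or GARP, which holds latent TGF-beta on the cell surface, rose by 2.85 and the protease Adamts1 by 2.82, while Itgb8, a subunit of a TGF-beta-activating integrin, fell by 1.38 and the Bmp1 relative Tll1 by 0.59.

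The extracellular antagonists outside the 39 went both ways, with 4 of 14 tested higher and 4 lower. Bmper rose by 3.13 on the log2 scale and Nbl1 by 2.06, while Sostdc1, a BMP and Wnt antagonist of the distal tubule, fell from 82.2 ± 11.5 to 8.52 ± 2.94 CPM (SD, n = 6 each; -3.26, adjusted p = 9.77e-10) and Sost by 2.69. Among 20 intracellular regulators, 10 rose and 1 fell. The SMAD corepressor Tgif1 rose by 2.63 and the ubiquitin ligase Smurf1 by 1.55, and the gene that fell was Smad9 (-1.48, adjusted p = 1.83e-05), the third BMP receptor SMAD. It went from 3.09 ± 0.449 to 1.102 ± 0.380 CPM (SD, n = 6 each), opposite to Smad1.

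Of 20 genes listed as induced by TGF-beta, 16 rose, 1 fell and 3 did not pass, with a median log2 fold change of 1.29. Timp1, an inhibitor of matrix proteases, rose by 6.63, and Snai2 fell by 1.47. Of the 3 collagen genes in the list, Col3a1 rose by 0.39 (adjusted p = 0.00315), and Col1a1 and Col1a2 did not pass, at -0.23 and -0.15. Most of these genes also respond to other signals of injury, and which signal acted was not tested. Of 14 genes listed as induced by BMP, which include Id1, Id2, Id3, Smad6 and Smad7 of the 39, 10 had enough counts to test, and 3 rose, 2 fell and 5 did not pass, with a median of 0.22. The 3 that rose were Id1, Smad6 and Smad7, and the 2 that fell were Id2 and Smad9. Both lists were drawn up with earlier results of these data known.

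**Figure D5:**
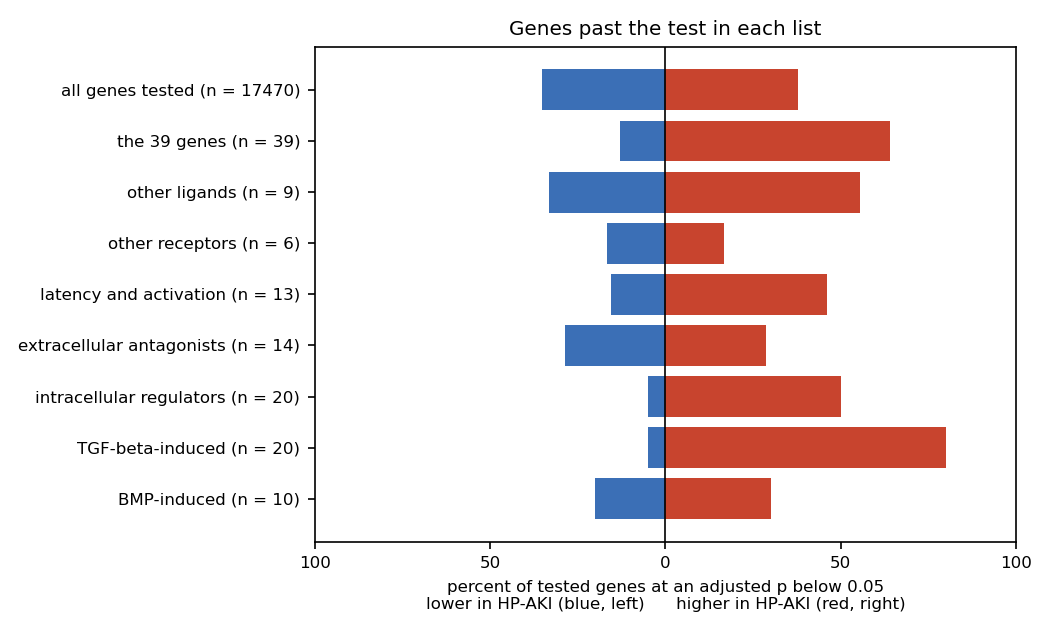
Percent of the tested genes of each list that were higher (red, right) or lower (blue, left) in HP-AKI at an adjusted p below 0.05, with the number tested in brackets. The 39 genes reach 64.1% higher and 12.8% lower, against 37.7% and 35.2% of all genes tested, and the TGF-beta-induced genes 80.0% and 5.0%.

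The kit of the labels does not mark strand, so reads from a gene and from an exon overlapping it on the other strand cannot be told apart. In the GENCODE vM21 annotation 12 of the 39 genes had such an overlap. Some partners were protein-coding. Gm15217 opposite Bmp4 fell from 24.4 ± 2.69 to 5.90 ± 1.30 CPM, and Fpgs opposite Eng fell from 35.7 ± 9.77 to 24.6 ± 5.35 CPM (SD, n = 6 each), both unlike the gene they overlap. Txndc5 opposite Bmp6 was at 96.7 ± 8.51 and 96.5 ± 8.66 CPM, and neither Txndc5 nor Orc4 opposite Acvr2a passed (adjusted p of 0.975 and 0.139). Ltbp2, Tgfb2, Tgfb3, Acvrl1, Bmpr1a, Fst and Id4 overlapped noncoding genes only.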

How the data were processed

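The deposited table of the 12 mouse kidney libraries holds raw counts per gene, which the authors left as whole numbers without normalization. Beside them are RPKM values that the authors scaled by gene length and a library total. The total implied by these values was 2.975 to 3.467 times the summed counts of the library. The RPKM values were not tested. GRCm38, edgeR, featureCounts and TopHat2 2.1.0 are named in the submitters' processing notes without their roles, and the setting for strand is not given in the sources used here. Per the labels, Trizol and a Qiagen kit served for extraction and TruSeq v2 for library preparation. Groups were taken from the labels, and no library was left out.

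All 12 libraries entered 1 fit in edgeR 4.0.16 under R 4.3.3, with filterByExpr, TMM factors and a two-sided quasi-likelihood F-test. P-values were adjusted by Benjamini-Hochberg across 17470 genes, at a threshold of 0.05. An SE is the log2 fold change over the root of its F statistic (median 0.141). Ratios between genes were tested on log2 counts with 0.5 added. The fit was also tested on simulated data, with changes planted in a far smaller share of genes than the 72.8% that passed here. That test cannot show how the fit behaves when most genes change. Alternatives were RLE, upper-quartile and library-size scaling, no filter, a filter of 1 CPM in 6 libraries, DESeq2 1.42.0, limma-voom (limma 3.58.1), leaving out each library, and leaving out sham 1, sham 2 and HP-AKI 8 together.

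The 39 genes, the other pathway lists, the marker lists, the ratios and the alternatives were chosen with earlier results of these data known. The rule named all 39 genes, Hmox1 and Havcr1, and from each other pathway list up to 2 genes with the largest rise and up to 2 with the largest fall. Some of these and some overlap partners are not reported here. The partners of overlapping genes, the collagen genes, Fstl3 and the platelet genes listed near 0 were named after their values were seen. So were the members of small counts, Kap and the distal and collecting duct markers. The list of TGF-beta-induced genes also holds Ltbr, which is not an established target. Tables and figures were made in Python 3.11.15 with matplotlib 3.10.9 and pandas 2.3.3.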

Additional observations from a re-analysis of the deposited data

Results flagged for a closer look

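In 7 of 78 sets of 6 values (39 genes in 2 groups), 1 library stood apart from its group by a Dixon test, where chance alone flags about 1 in 20. In HP-AKI 8, Grem1 reached 6.08 CPM (next highest 0.921), Skil 170.8 CPM (next 124.4) and Bmpr2 203.0 CPM (next 145.2). In HP-AKI 13, Smad7 reached 41.8 CPM (next 34.0) and Id1 14.7 CPM (next 11.7). In sham 2, Tgfb2 reached 4.85 CPM (next 3.50), and in sham 1, Tgfbr3 reached 76.2 CPM (next 62.3). All 7 were the highest value of their group.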

How the results depend on the processing

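Under the 7 other scalings, filters and tools, 12 omissions of 1 library and the joint omission of sham 1, sham 2 and HP-AKI 8, 11163 to 14633 genes passed in all (12720 in the edgeR test), and 28 to 34 of the 39 (30 there). Of 777 values of single members, 740 kept direction and side of the threshold, 16 lost and 17 gained the call, and 4 changed sign, and 28 members kept both in every alternative that tested them. The sign changes were Bmp4 at -0.0082 without HP-AKI 12 and -0.052 without the 3 libraries, and Ltbp4 at -0.044 without HP-AKI 13 and -0.017 without the 3 libraries; neither gene passed in any of these, and the cause was not tested. Over all omissions of 1 library Bmp4 reached at most 0.18 and Ltbp4 at most 0.31. Calls lost besides those given above were Bmpr1a with upper-quartile scaling (0.23) and without a filter (0.25), Acvrl1 without a filter (0.34), and Eng without the 3 libraries (0.45). Calls gained on leaving out libraries were Ltbp3 (-0.35 without sham 2, -0.41 without HP-AKI 13), Id3 (0.48 without HP-AKI 8) and, under 1 or more omissions, Tgfbr3, Bmpr2, Acvr2a and Smad5. The ratio of Bmpr2 to Bmpr1a passed without HP-AKI 8 (-0.12, exact permutation, adjusted p = 0.0202). No paired analysis was possible because the groups share no sample numbers. Inhba, with 21 sham counts, and Grem1, with 61, are the members that depth limits most.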

Other observations

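Further marker lists were read from the same libraries. Of 8 lymphocyte markers tested, 7 were lower in HP-AKI and none was higher, and their summed level was 7.12 to 9.12 CPM in sham and 1.75 to 2.27 CPM in HP-AKI. All 10 proximal tubule markers were lower in HP-AKI, with a median log2 fold change of -1.90, and their part in the levels of the 39 genes was not tested. Of 10 markers of neighbouring fat, adrenal gland and skeletal muscle, 5 had enough counts to test, 1 of which was higher and 1 lower, and the 10 summed to 2.58 to 14.7 CPM in sham and 7.03 to 19.2 CPM in HP-AKI.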
